A study of Mus musculus with 11 samples.

Results

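The genes described here are the unfolded protein response and endoplasmic reticulum (ER) folding genes of thymic fibroblasts, in 4 sets: 15 folding and chaperone genes, 7 genes of ER degradation, 4 stress sensors and their transducers, and 7 genes of the Atf4 arm. They were taken by symbol from a list drawn up with earlier results of these data known. Of the 33 symbols, 32 were among the 12430 genes of the count table and 30 of those passed the filter on low counts, which 10067 genes passed in all. Ern1, the IRE1 sensor, has no row in the table and was not analysed here, and Derl2 and Sesn2 were counted but too low to test. The cells came from young male wild-type mice given dexamethasone, a synthetic glucocorticoid, into the peritoneum at 200 ug per 10 g, and were taken 4 d later (4 libraries) or 18 h later (3 libraries). Untreated wild-type mice of matched age gave the third group (4 libraries). All cells were sorted as CD45-, EpCAM+, CD34+, CD31- and PDGFRalpha+ in the labels' wording, and MARS-seq, which counts the 3′ ends of polyadenylated RNA, was used throughout. Titles of the later group read 3 d, and its other labels, followed here, 4 d. The labels do not say whether a library holds cells of 1 mouse or of several. The p-values therefore speak only to the spread among these 11 libraries, which may be technical.

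Proteins that enter the ER fold with the help of chaperones, lectins and disulfide isomerases, and those that fail are sent back to the cytosol for degradation. When unfolded protein builds up, the sensors IRE1, ATF6 and PERK raise the folding and degradation genes through XBP1 and cleaved ATF6 and lower protein synthesis through phosphorylation of eIF2alpha, which favours translation of ATF4. Other kinases feed into the same eIF2alpha and ATF4 branch, which is why the Atf4 arm is treated apart, and fibroblasts, as makers of collagen and other secreted matrix, carry a large folding load at rest.

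The promoters of these genes carry the best known marks of this response, and the stretches around them are shown first because the members can be read against them. A window of 300 bases, 250 before and 50 after the annotated start, was found for 29 of the 33 symbols in RefSeq (build GRCm38.p6), and both strands were searched. The motifs are known marks of this response, and the members were listed as its genes. A higher share in members than in all genes was thus to be foreseen, and is no result of these data. The ER stress response element, ERSE (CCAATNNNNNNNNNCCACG), which ATF6 binds together with NF-Y, was in 9 of the 29 windows, against 37 of the windows of 27025 genes (0.137%). All 9 belong to the folding set (7) or to ER degradation (2), and Hsp90b1 holds it at 2 positions. They are printed in capitals with 20 bases on each side, on the strand on which the motif reads. Their places are chr2:34772005-34772063 (plus strand) for Hspa5, chr10:86705618-86705676 (minus) and chr10:86705513-86705571 (plus) for Hsp90b1, chr8:84847055-84847113 (plus) for Calr and chr11:50325780-50325838 (minus) for Canx. Those of the rest are chr12:17266471-17266529 (plus) for Pdia6, chr14:118937807-118937865 (plus) for Dnajc3, chr15:88819500-88819558 (minus) for Creld2, chr10:75893222-75893280 (minus) for Derl3 and chr19:6046512-6046570 (plus) for Syvn1.
Hspa5: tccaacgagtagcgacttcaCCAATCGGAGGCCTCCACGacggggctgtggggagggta
Hsp90b1, upstream match: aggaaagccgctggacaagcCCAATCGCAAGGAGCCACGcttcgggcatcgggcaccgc
Hsp90b1, downstream match: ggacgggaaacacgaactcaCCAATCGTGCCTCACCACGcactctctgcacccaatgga
Calr: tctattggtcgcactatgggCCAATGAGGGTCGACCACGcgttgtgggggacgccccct
Canx: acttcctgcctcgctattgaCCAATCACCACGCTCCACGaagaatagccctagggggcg
Pdia6: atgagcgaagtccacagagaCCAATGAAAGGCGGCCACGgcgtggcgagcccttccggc
Dnajc3: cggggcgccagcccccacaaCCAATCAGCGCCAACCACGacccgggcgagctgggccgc
Creld2: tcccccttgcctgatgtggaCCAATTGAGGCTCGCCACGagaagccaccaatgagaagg
Derl3: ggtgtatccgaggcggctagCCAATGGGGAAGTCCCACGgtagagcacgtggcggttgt
Syvn1: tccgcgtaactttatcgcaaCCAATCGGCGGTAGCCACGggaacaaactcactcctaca

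With any base in the last place (CCAATNNNNNNNNNCCAC), which takes in every full ERSE, 13 of the 29 member windows matched, adding Pdia3, Pdia4, Herpud1 and Derl2, against 0.429% of all genes. The related element ERSE-II (ATTGG, any base, then CCACG) was in 2 member windows, those of Herpud1 and Dnajb11, against 0.0444% of all genes. Herpud1, which recruits ubiquilins to the ER degradation complex, held 3 of the motifs searched, and its promoter up to the base before the start, chr8:94386179-94386428 on the plus strand, is printed with them in capitals. From left to right they are a CARE read on the opposite strand, the ERSE-II and an ERSE with another last base. The ERSE-II of Dnajb11 lies just after the start, at chr16:22857844-22857870 on the plus strand.
Herpud1: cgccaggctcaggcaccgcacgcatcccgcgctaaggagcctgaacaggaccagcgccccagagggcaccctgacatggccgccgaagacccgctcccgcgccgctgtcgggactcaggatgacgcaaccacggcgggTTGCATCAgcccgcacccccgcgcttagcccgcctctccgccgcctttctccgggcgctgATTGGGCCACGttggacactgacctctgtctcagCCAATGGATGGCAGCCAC
Dnajb11: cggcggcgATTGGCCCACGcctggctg

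The Atf4 arm held other letters. The CARE motif (TGATGNAA), which ATF4 binds with C/EBP partners, was in 4 of the 29 member windows, those of Chac1, Trib3, Asns and Herpud1, against 4.51% of all genes. The CRE (TGACGTCA), a palindrome bound by CREB and ATF family dimers, was in the window of Ppp1r15a, against 2.03% of all genes. The UPRE (TGACGTGG) was in 0 of the 29, against 0.714% of all genes. The CARE of Asns (chr6:7693205-7693252, minus strand) and that of Chac1 (chr2:119351029-119351076, minus strand) and the CRE of Ppp1r15a (chr7:45526253-45526300, minus strand) are printed in capitals.
Asns: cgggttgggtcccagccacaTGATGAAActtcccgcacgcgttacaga
Chac1: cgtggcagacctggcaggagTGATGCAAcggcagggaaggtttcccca
Ppp1r15a: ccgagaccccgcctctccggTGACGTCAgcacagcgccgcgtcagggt

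**Figure D1:**
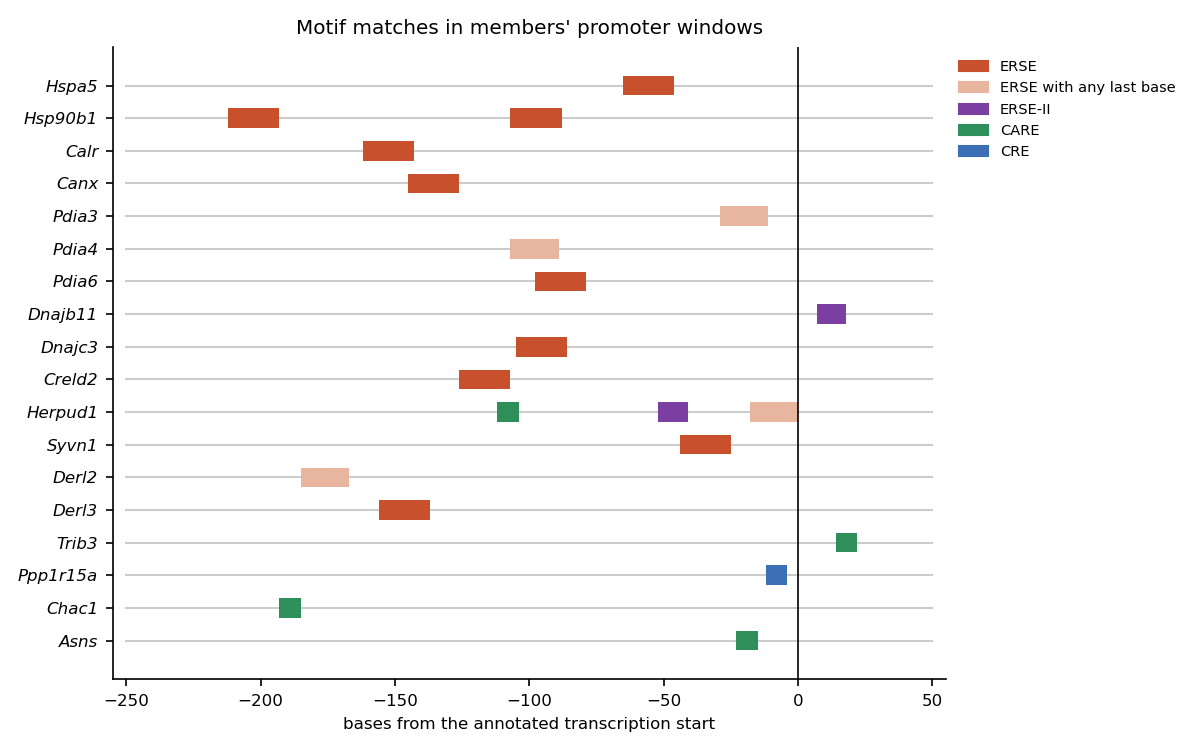
Positions of the motif matches in the promoter windows of the 18 members that hold at least 1, as bases from the RefSeq start (vertical line at 0). Each bar spans 1 match, either strand, and the ERSE matches of the folding genes lie before the start.

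Depth ran from 916281 to 3357113 counts a library, and the members together took 0.744% to 1.23% of the counts in 4 d libraries, 0.927% to 1.04% in 18 h libraries and 0.641% to 0.863% in untreated libraries. A count of 0 allowed between 1 and 3.74 CPM (counts per 1000000 counts of a library), which covers counting error only. Replicate 2 of the 18 h group, at 924731 counts, stood apart: its correlation with the other 18 h libraries was 0.864 and 0.888, against 0.954 between those, and it was the highest of all 11 libraries for 7 of the 30 members and the lowest for 7 others. The same library was highest for 21.4% and lowest for 25.3% of all genes tested, so calls at 18 h that were lost without it are given with their values without it. Other libraries were extreme for more members than their share of all genes. Untreated replicate 3 was lowest for 10 of the 30 members, against 11.2% of all genes, and highest for 0. 4 d replicate 1 was highest for 6 of the 30, against 2.55% of all genes, and lowest for 0. Summed markers of fibroblasts (10 of 10 genes in the table) were 20000 to 34200 CPM at 4 d, 6580 to 15800 at 18 h and 17800 to 26700 in untreated libraries. Summed markers of endothelium (11 of 11 genes) were 111 to 256 CPM at 4 d, 214 to 736 at 18 h and 206 to 324 untreated, those of macrophages (10 of 11) 79.3 to 159 at 4 d, 148 to 405 at 18 h and 73.5 to 195 untreated. Those of pericytes (9 of 10) were 118 to 183 CPM at 4 d, 402 to 1090 at 18 h and 133 to 301 untreated, and those of B and plasma cells (6 of 11) 37.9 to 49.8 at 4 d, 81.6 to 141 at 18 h and 39.4 to 56.5 untreated. Thymocyte markers (8 of 10) stayed at 3.9 to 25.7 CPM at 4 d, 10.9 to 50.1 at 18 h and 10.9 to 57.1 untreated, with Rag1 at 0 in every 18 h library, and those of thymic epithelium (6 of 10) at 70.3 to 715 CPM at 4 d, 399 to 588 at 18 h and 236 to 624 untreated. Of the sort markers, Epcam was at 1.09 to 5.67 CPM at 4 d, 1.22 to 4.80 at 18 h and 0.379 to 10.4 untreated, and Pecam1, which encodes CD31, at 1.82 to 12.1 CPM at 4 d, 14.6 to 122 at 18 h and 0 to 3.79 untreated. Exons of Ppp1r15a, Hsp90b1, Pdia3, Syvn1, Manf and Derl2 overlap another gene of the table on the opposite strand, and their counts may include its reads if strand was not used. Exons of Manf also overlap Rbm15b on the same strand, where reads could be counted for either gene. The part of these other cells in the results below was not tested, and in bulk libraries fewer cells of a type and less RNA per cell cannot be told apart.

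**Figure D2:**
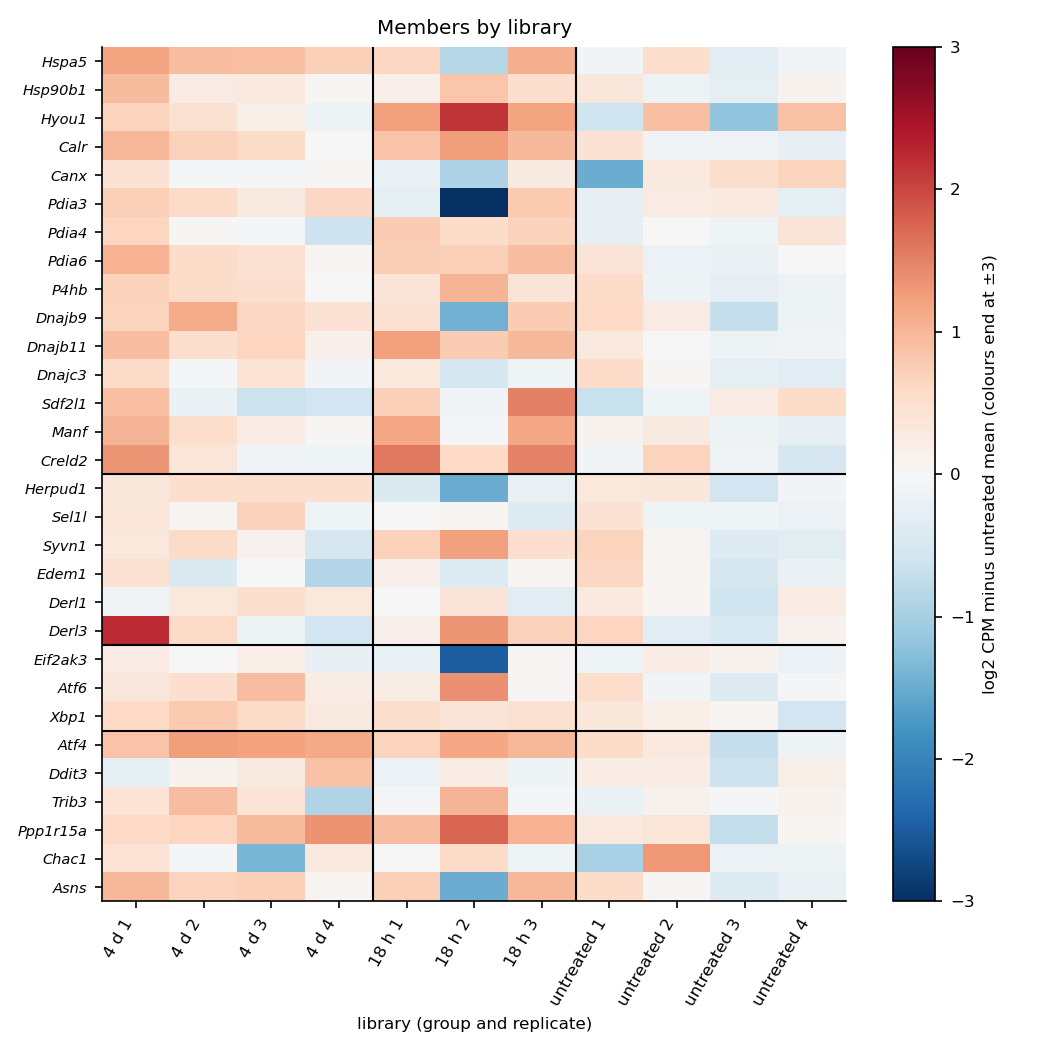
Log2 CPM of the 30 tested members in each of the 11 libraries, as the difference from the untreated mean of the same gene, ordered by set (folding, ER degradation, sensors, Atf4 arm from top to bottom). 18 h replicate 2 is the column with both the deepest blue (Pdia3, Eif2ak3) and several of the deepest red cells. Untreated replicate 3 is the lowest of the 11 for 10 of the 30 members, against 11.2% of all genes tested.

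At 18 h, 5 of the 30 tested members were higher than in untreated fibroblasts and 0 were lower (edgeR's quasi-likelihood test, threshold 0.05 on the Benjamini-Hochberg adjusted p). Calr, Dnajb11 and Creld2 are of the folding set, and Atf4 and Ppp1r15a of the Atf4 arm, with log2 differences between 0.89 and 1.25. Over all genes tested 12.5% passed in either direction, 7.85% higher and 4.69% lower. The share of members called, 16.7%, was thus not far from that of all genes. All 5 of those members were higher, but so were 790 of the 1262 genes called in all, and 5 calls are too few to set their direction apart. Leaving out 1 library moved the share of all genes to between 6.38% (without 18 h replicate 1) and 15.2% (without untreated replicate 1), and the count of members called to between 2 and 6. The median log2 difference of the 30 members was 0.51, against -0.03 over all genes. By set it was 0.68 for folding genes (12 of 15 above 0), -0.05 for ER degradation (2 of 6 above 0), 0.40 for the sensors (2 of 3) and 0.42 for the Atf4 arm (4 of 6). The median of the sensors was 0.11 without 18 h replicate 2 and 0.24 without untreated replicate 4. That of ER degradation ran from -0.19 without untreated replicate 3 to 0.09 without 18 h replicate 3, and was also above 0 without untreated replicate 1 (0.08). The fits without untreated replicate 1 or 3 tested 5 genes of this set, without Derl3, so their medians are not over the same genes. Those of the folding genes and of the Atf4 arm lay between 0.62 and 0.81 and between 0.33 and 0.53 over the fits that left out 1 library.

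Calr encodes calreticulin, the soluble lectin chaperone that holds newly made glycoproteins and buffers ER calcium (chr8:84841850-84846934). It was at 2246, 1824, 1641 and 1119 CPM in the 4 d libraries, 2025, 2672 and 2222 CPM at 18 h, and 1531, 1040, 1052 and 954.1 CPM in untreated libraries. Every 18 h library lay above every untreated one, and the 4 d libraries spanned the gap and overlapped both. The log2 difference at 18 h was 1.01 ± 0.26 (SE; adjusted p = 0.0221, edgeR). Left without 18 h replicate 2 it was 0.89 (adjusted p = 0.0575), and leaving out untreated replicate 2, 3 or 4 gave adjusted p = 0.0615, 0.0620 and 0.0658. Its membrane-bound partner Canx, calnexin, was not called: it was at 29.3 to 41.5 CPM at 4 d, 15.8 to 37.2 at 18 h and 10.4 to 49.2 untreated, and its log2 difference at 18 h was -0.39 ± 0.42 (adjusted p = 0.582).

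Dnajb11 encodes ERdj3, a J-domain co-chaperone that hands unfolded chains to BiP (chr16:22857845-22879634). It was at 123.7, 91.1, 100.7 and 71.0 CPM at 4 d, 151.9, 109.4 and 127.8 CPM at 18 h, and 79.2, 63.3, 57.4 and 59.4 CPM untreated. All 18 h libraries were above all untreated ones. Its log2 difference was 1.01 ± 0.23 (adjusted p = 0.0128, edgeR), and it passed in 19 of 21 alternative fits, missing the threshold without 18 h replicate 1 (0.87, adjusted p = 0.0652) and passing without 18 h replicate 2 (1.11, adjusted p = 0.00833). The other J-domain co-chaperones of the list were not called: Dnajb9 (ERdj4) differed by 0.13 ± 0.41 and Dnajc3 (p58IPK) by -0.10 ± 0.29 on the log2 scale.

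Creld2, an ER-resident protein secreted under stress with disulfide isomerase activity (chr15:88819646-88826683), was at 150.3, 77.6, 56.3 and 54.8 CPM at 4 d, 180.7, 91.1 and 169.8 CPM at 18 h, and 56.5, 96.3, 56.0 and 42.0 CPM untreated. 18 h replicates 1 and 3 were above every untreated library, and 18 h replicate 2 was below untreated replicate 2. Its log2 difference was 1.25 ± 0.38 (adjusted p = 0.0451, edgeR), and 10 of 21 alternative fits kept it past the threshold. It fell short without 18 h replicate 1 (adjusted p = 0.154), 18 h replicate 3 (0.101), untreated replicate 1 (0.0706), 3 (0.113) or 4 (0.123), or 4 d replicate 2 (0.0583) or 4 (0.0524), and passed without 18 h replicate 2 (1.49, adjusted p = 0.0228).

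The other 12 folding genes were not called at 18 h, with log2 differences from -0.39 to 1.46. Hspa5 encodes BiP, the main Hsp70 of the ER and the classical readout of the response (chr2:34771970-34777547). It was at 1620, 1354, 1348 and 1168 CPM at 4 d, 1094, 392.5 and 1526 CPM at 18 h, and 675.4, 1029, 569.3 and 665.3 CPM untreated. The 3 libraries at 18 h did not go together: replicates 1 and 3 were above every untreated library and replicate 2 below all of them, and the log2 difference was 0.45 ± 0.36 (adjusted p = 0.435). Hsp90b1 (GRP94, the ER Hsp90) differed by 0.51 ± 0.26 (adjusted p = 0.229) and P4hb (the founding protein disulfide isomerase, also a subunit of collagen prolyl hydroxylase) by 0.58 ± 0.27 (adjusted p = 0.176). Pdia6, another disulfide isomerase, was just outside the threshold at 0.78 ± 0.25 (adjusted p = 0.0567), at 839.6 to 971.3 CPM at 18 h against 444.1 to 669.7 CPM untreated, with no overlap.

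Manf, a secreted ER protein that binds BiP, showed how much rests on 18 h replicate 2. It was at 649.8, 465.3, 378.4 and 330.1 CPM at 4 d, 721.2, 308.6 and 718.6 CPM at 18 h, and 346.5, 386.9, 288.2 and 271.7 CPM untreated. With all libraries its log2 difference at 18 h was 0.85 ± 0.31 (adjusted p = 0.0848), and without 18 h replicate 2 it was 1.15 (adjusted p = 0.0127). Pdia3 (ERp57, which works with the lectin chaperones) was at 351.8, 47.4 and 738.2 CPM at 18 h, against 362.0, 508.4, 524.3 and 348.2 CPM untreated, so the same library was the lowest of all 11. Hyou1 (GRP170, the exchange factor of BiP) had the largest log2 difference of the set, 1.46 ± 0.58 (adjusted p = 0.113), on 13 to 16 counts a library at 18 h and 2 to 16 counts untreated. Without 18 h replicate 2, the folding set had a median of 0.81 and 3 genes called, Dnajb11, Creld2 and Manf.

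The ER degradation genes showed no common direction at 18 h, with 0 of 6 called (0 by DESeq2 as well, 2 of 6 at an unadjusted p below 0.05, as were 28.1% of all genes) and log2 differences from -0.65 to 0.83. Herpud1 (chr8:94386438-94395377) was at 201.2, 224.7, 224.4 and 220.5 CPM at 4 d, 117.3, 55.9 and 135.9 CPM at 18 h, and 195.8, 200.5, 105.9 and 150.2 CPM untreated. Its 18 h libraries overlapped only the lowest untreated one, and the log2 difference was -0.65 ± 0.30 (adjusted p = 0.171, edgeR). Syvn1, the ubiquitin ligase Hrd1 at the centre of the complex, stood on the other side, at 140.2, 205.4 and 123.0 CPM at 18 h, against 137.2, 92.4, 65.6 and 67.7 CPM untreated. Its log2 difference was 0.78 ± 0.31 (adjusted p = 0.115), and 1.05 (adjusted p = 0.0319) without untreated replicate 1. Sel1l, the adaptor of Hrd1, was at 37.2 to 51.0 CPM at 18 h and 43.1 to 65.8 CPM untreated, and differed by -0.12 ± 0.26. Edem1, which delivers trimmed glycoproteins, and Derl1, a channel subunit, differed by -0.08 and -0.02, and Derl3 by 0.83 ± 0.77 on 5 to 9 counts a library at 18 h and 3 to 8 untreated. Derl2, not tested, had 1 to 5 counts at 4 d, 1 to 5 at 18 h and 1 to 14 untreated.

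Of the sensors and transducers, 0 of 3 were called at 18 h (0 by DESeq2, and 0 at an unadjusted p below 0.05). Xbp1, whose mRNA is cut by IRE1 to make the active factor, was at 435.1, 495.7, 433.4 and 347.5 CPM at 4 d, 404.6, 376.7 and 394.8 CPM at 18 h, and 364.1, 330.4, 299.3 and 195.3 CPM untreated. Its 18 h libraries were close together and all above the untreated ones, with a log2 difference of 0.40 ± 0.23 (adjusted p = 0.281). These gene counts do not separate the spliced from the unspliced form. Atf6 differed by 0.60 ± 0.36 and Eif2ak3, which encodes PERK, by -0.45 ± 0.38, and in both 18 h replicate 2 was the extreme library, at 40.1 CPM of Atf6 (15.3 and 17.6 CPM in the other 18 h libraries) and at 2 counts of Eif2ak3.

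Atf4 encodes the transcription factor of the eIF2alpha branch (chr15:80255184-80257541). It was at 940.1, 1232, 1204 and 1136 CPM at 4 d, 828.9, 1169 and 1038 CPM at 18 h, and 767.0, 631.6, 322.4 and 465.5 CPM untreated. Every 4 d and every 18 h library was above every untreated library. At 18 h the log2 difference was 0.89 ± 0.27 (adjusted p = 0.0469, edgeR), close enough to the threshold that only 5 of 21 alternative fits kept it. Leaving out any library except untreated replicate 1 moved the adjusted p to between 0.0510 and 0.119, with a log2 difference of 0.70 to 1.01, and without 18 h replicate 2 it was 0.77 (adjusted p = 0.111).

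Ppp1r15a encodes GADD34, which brings phosphatase 1 to eIF2alpha and so restores protein synthesis (chr7:45522916-45526268, with exons that overlap Tulp2 on the opposite strand). It was at 453.7, 463.5, 571.1 and 759.9 CPM at 4 d, 566.6, 994.0 and 610.8 CPM at 18 h, and 363.1, 384.7, 180.1 and 310.0 CPM untreated. Both treated groups lay above the untreated range. Its log2 difference at 18 h was 1.23 ± 0.30 (adjusted p = 0.0173, edgeR), and 0.93 (adjusted p = 0.0592) without 18 h replicate 2. Ddit3, which encodes CHOP, the factor linked to cell death under lasting stress, was not called: it was at 106.1, 139.7 and 106.3 CPM at 18 h, against 138.3, 138.3, 77.8 and 135.9 CPM untreated, and differed by -0.07 ± 0.29. Asns (asparagine synthetase) differed by 0.51 ± 0.43, with 18 h replicate 2 at 3 counts, and Trib3, a pseudokinase that binds ATF4, and Chac1, which breaks down glutathione, by 0.33 ± 0.45 and -0.09 ± 0.55. Sesn2, a stress sestrin that was not tested, was at 1.67 to 4.61 CPM at 4 d, 0 to 4.26 CPM at 18 h (the 0 allows up to 3.65 CPM) and 0.357 to 2.24 CPM untreated.

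**Figure D3:**
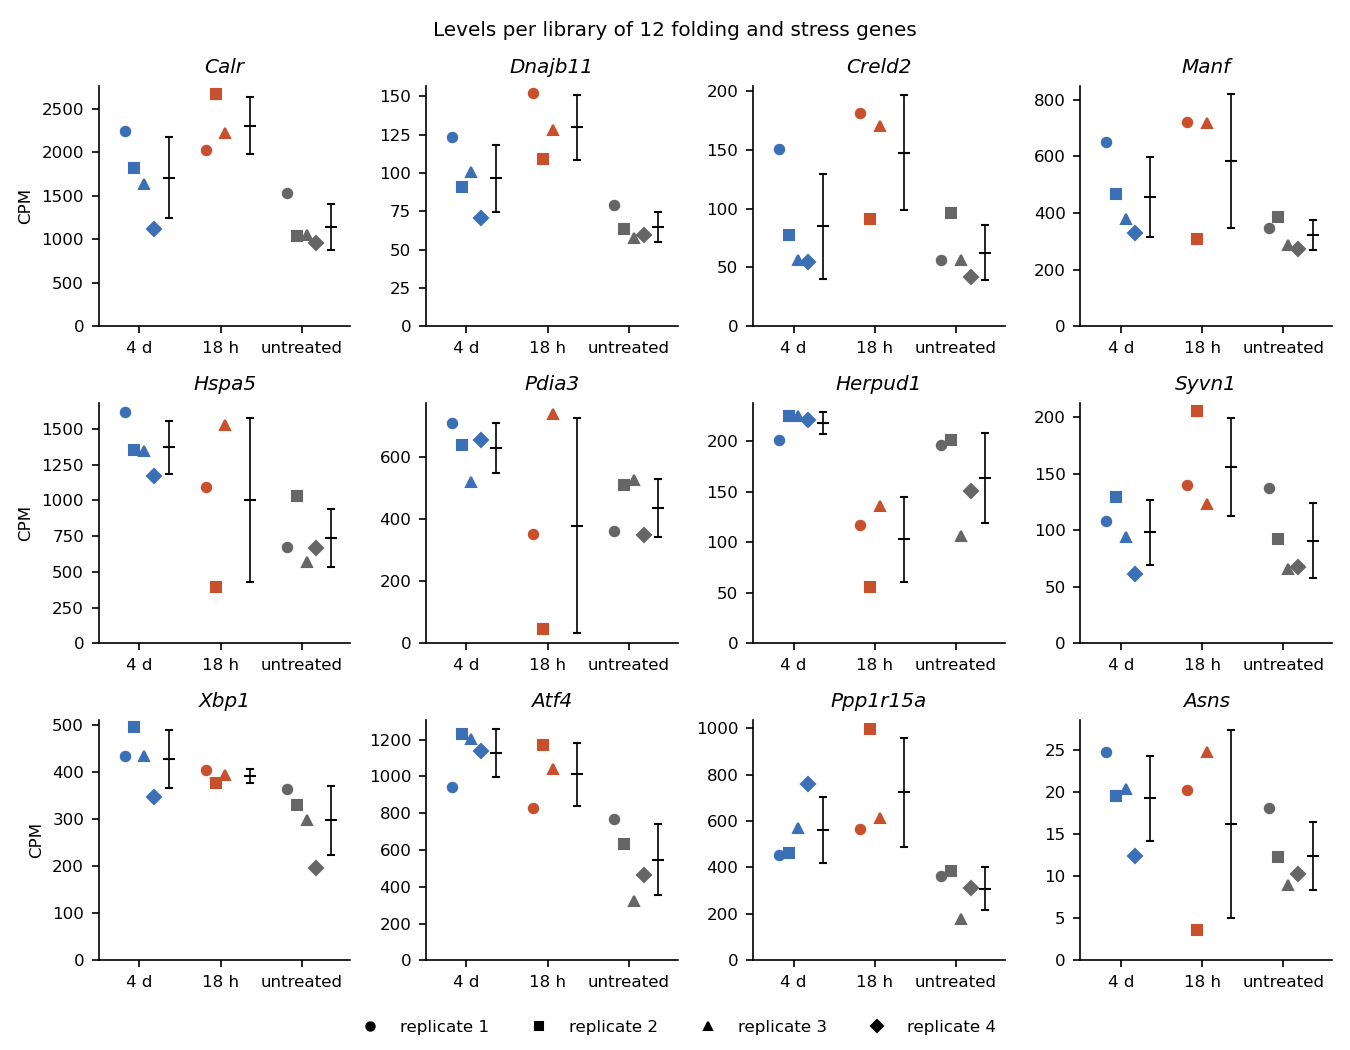
CPM of 12 members in each library of the 4 d, 18 h and untreated groups, with the group mean and SD beside the points. Atf4 and Ppp1r15a lie above the untreated range in both treated groups, Calr and Dnajb11 in all 18 h libraries, and Hspa5 and Herpud1 in all 4 d libraries. 18 h replicate 2 (square) is far below its group mates for Hspa5, Pdia3, Manf and Asns.

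Set against the promoter letters, Calr and Creld2 were the 2 members called at 18 h among the 9 with a full ERSE, Dnajb11 was 1 of the 2 with an ERSE-II, and Ppp1r15a was the member with a CRE. None of the 4 members with a CARE was called at 18 h, where Asns differed by 0.51, Trib3 by 0.33, Chac1 by -0.09 and Herpud1 by -0.65. The window of Atf4 held none of the motifs searched. Of all 30 tested members 16.7% were called at 18 h, and of all genes 12.5%. The counts by motif are too small to be set apart from those shares. The motif matches describe the windows and were not tested against the calls.

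Genes of the wider pathway were counted in the same way at 18 h, on lists from general knowledge that exclude the members. Like the members, these lists were drawn up with earlier results of these data known. Their counts are to be read against the 7.85% of all genes called higher and 4.69% called lower. Of 34 tested Atf4 target genes outside the member list, 10 were higher and 0 lower, with a median log2 difference of 0.55, and 4 to 11 were higher when 1 library was left out (11 without 18 h replicate 2). Gdf15, a stress-induced cytokine, was at 28.4 to 56.1 CPM at 4 d, 166.8, 93.6 and 155.5 CPM at 18 h, and 8.56 to 43.9 CPM untreated, a log2 difference of 2.40 ± 0.41 (adjusted p = 0.00235). Slc3a2, the heavy chain of amino acid exchangers, differed by 1.29 ± 0.24 (adjusted p = 0.00364) and Cars, the cysteinyl-tRNA synthetase, by 1.28 ± 0.27 (adjusted p = 0.00822). Ddit4, an inhibitor of mTORC1 that glucocorticoids also induce, differed by 1.51 ± 0.27 (adjusted p = 0.00263). The other 6 called were Mthfd2, a mitochondrial folate enzyme, and the tRNA synthetases Aars, Gars, Tars, Wars and Yars. Without 18 h replicate 2, Gars and Tars missed the threshold (adjusted p = 0.0938 and 0.124). Exons of Aars overlap Exosc6 on the same strand, and those of Yars overlap C77080 on the opposite strand. Of 10 tested regulators of eIF2 outside the members (the kinases Eif2ak1, Eif2ak2 and Eif2ak4, the exchange factor subunits Eif2b1, Eif2b2, Eif2b3, Eif2b4 and Eif2b5, the phosphatase subunit Ppp1r15b and the adaptor Nck1), 1 was called: Eif2ak2, the interferon-inducible kinase PKR, at 130.1, 354.8 and 112.5 CPM at 18 h, against 44.0, 33.6, 31.0 and 23.5 CPM untreated, a log2 difference of 2.58 ± 0.36 (adjusted p = 0.000452) that was 1.88 without 18 h replicate 2.

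Other folding genes of the ER went both ways at 18 h, with 3 of 32 tested higher, 5 lower and a median of -0.09. Mogs, the glucosidase that trims the first glucose from new N-glycans, was at 41.1 to 48.4 CPM at 4 d, 65.6, 83.8 and 69.6 CPM at 18 h and 23.5 to 37.0 CPM untreated, a log2 difference of 1.16 ± 0.22 (adjusted p = 0.00388). Fkbp11, a prolyl isomerase of secretory cells, differed by 1.28 ± 0.26 (adjusted p = 0.00603), in the same libraries in which B and plasma cell markers summed to 81.6 to 141 CPM, and the part of such cells was not tested. Of the 3 calcium-binding reticulocalbins, 2 were called lower: Rcn3 was at 383.3, 354.8 and 394.8 CPM at 18 h, against 703.3, 889.8, 850.7 and 756.9 CPM untreated (log2 difference -1.08 ± 0.21, adjusted p = 0.00433), and Rcn1 differed by -1.18 ± 0.26 (adjusted p = 0.00876). The third, Rcn2, was not called, with a log2 difference of -0.76 ± 0.24 (adjusted p = 0.0537). The rest of those called, named after their values were seen, were Prkcsh, the beta subunit of glucosidase II (0.90), and on the lower side Sdf4 (-1.20), Fkbp9 (-0.97) and Dnajc10, a disulfide reductase (-0.85). Prkcsh, Fkbp9 and Dnajc10 missed the threshold without 18 h replicate 2 (adjusted p = 0.0532, 0.0981 and 0.0545).

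Smaller numbers were called in the remaining lists at 18 h. Of 27 translocation and glycosylation genes, the translocon-associated subunits Ssr2 (0.62 ± 0.18, adjusted p = 0.0418) and Ssr1 (-0.95 ± 0.28, adjusted p = 0.0406) were called in opposite directions, Ssr1 no longer without 18 h replicate 2 (adjusted p = 0.0829). Of 21 further ER degradation genes, 1 was higher, Aup1, which recruits ubiquitin-conjugating enzymes (0.65 ± 0.19, adjusted p = 0.0345, and 0.0522 without 18 h replicate 2), whose exons overlap Htra2 on the opposite strand. Of 15 other stress transducers, 2 were higher, Creb3l1, an ER-anchored factor related to ATF6 that serves collagen secretion (0.93 ± 0.23, adjusted p = 0.0188), and Traf2, an adaptor of IRE1 (1.15 ± 0.31, adjusted p = 0.0257, and 0.0627 without 18 h replicate 2). Of 18 cytosolic heat shock genes, 1 was higher, the factor Hsf1 (0.82 ± 0.23, adjusted p = 0.0309, and 0.0745 without 18 h replicate 2), and their median was -0.02. Over the 21 alternative fits, Ddit4, Gdf15, Eif2ak2 and Fkbp11 passed in all 21, Mogs, Rcn1, Rcn3 and Slc3a2 in 20, Cars and Sdf4 in 19 and Wars in 18. Aars, Prkcsh and Creb3l1 passed in 16, Traf2 in 15, Hsf1 in 12, Dnajc10 in 11, Fkbp9 and Ssr2 in 9, Ssr1, Aup1 and Tars in 8, Gars in 7 and Yars in 6, and Mthfd2 in 8 of the 20 in which it was tested. Of the 10 Atf4 targets called, Mthfd2, Tars, Gars and Yars were thus lost in most of the fits.

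**Figure D4:**
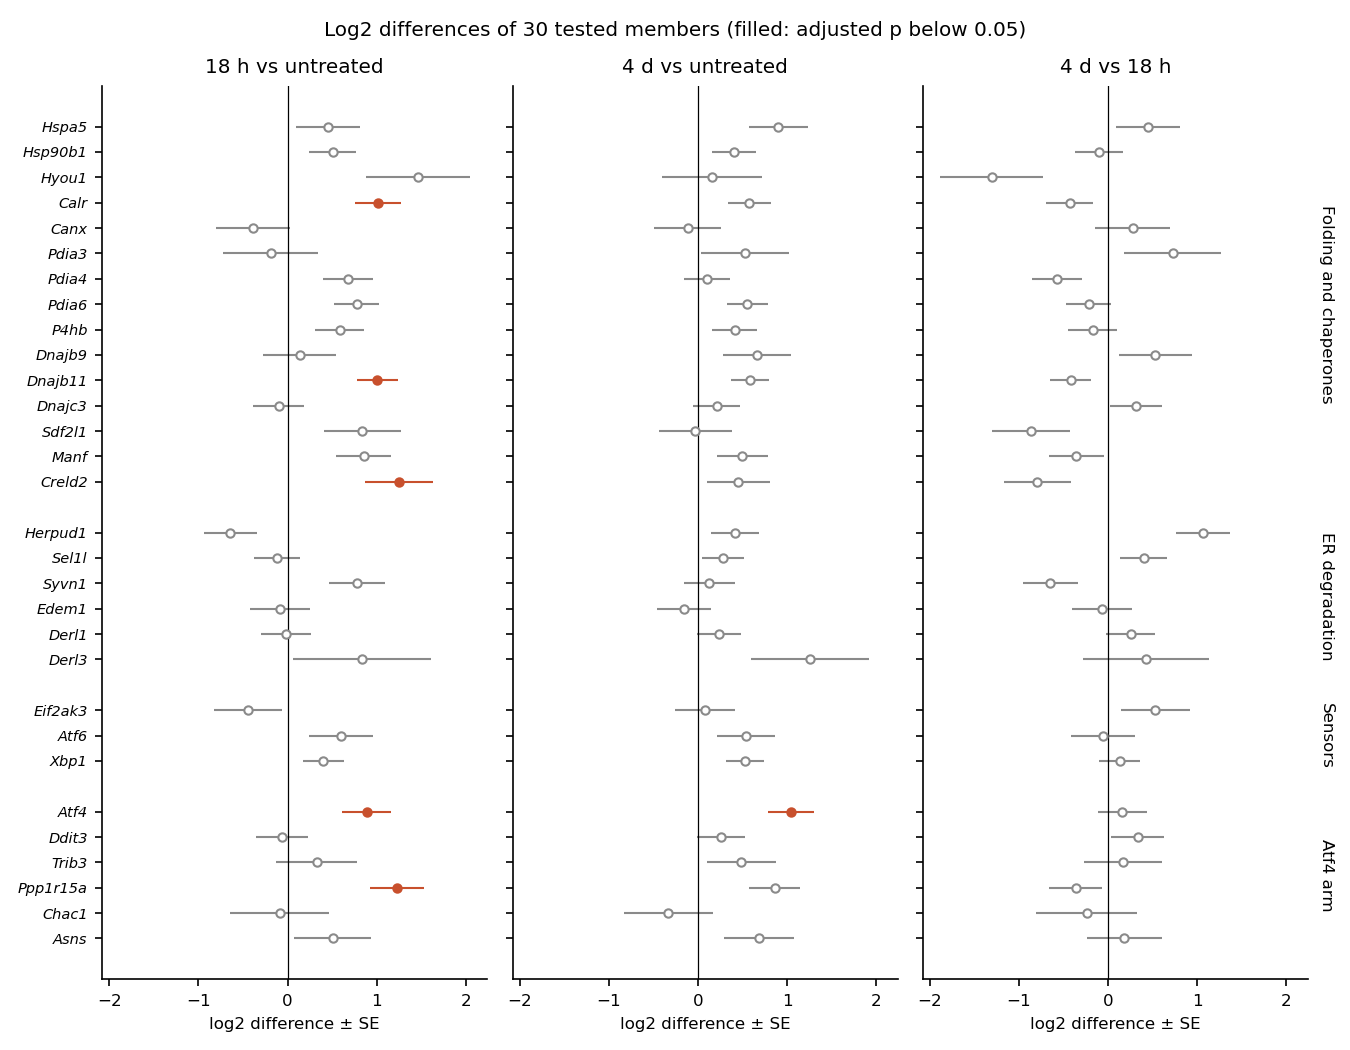
Log2 differences with SE of the 30 tested members in the 3 comparisons, filled where the adjusted p was below 0.05. At 18 h 5 members are filled, at 4 d against untreated Atf4 alone, and in 4 d against 18 h none, where Herpud1 lies farthest to the right and Hyou1 farthest to the left.

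At 4 d, 1 of the 30 tested members was higher than in untreated fibroblasts and 0 were lower, against 2.48% higher and 0.824% lower of all genes (3.31% in either direction). That gene was Atf4, with a log2 difference of 1.05 ± 0.26 (adjusted p = 0.04, edgeR), from the library values above. The call was lost without any 1 of the 4 d libraries (adjusted p from 0.0545 to 0.0978) and without untreated replicate 2, 3 or 4 (0.0729, 0.113 and 0.127), while the log2 difference stayed between 0.86 and 1.12 in these fits. The comparison shares the untreated libraries with the one at 18 h. The median of the members was 0.44, against -0.04 over all genes, and 26 of 30 lay above 0.

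The folding set at 4 d had 13 of 15 genes above 0 and a median log2 difference of 0.45, with 0 called (0 by DESeq2, and 4 at an unadjusted p below 0.05, as were 18.3% of all genes). The median was 0.28 without 4 d replicate 1. Hspa5 was above the untreated range in all 4 d libraries, with a log2 difference of 0.90 ± 0.33 (adjusted p = 0.153), and passed without 18 h replicate 2 in the shared fit (adjusted p = 0.0298). Dnajb11 differed by 0.59 ± 0.22 (adjusted p = 0.154), Calr by 0.58 ± 0.24 (adjusted p = 0.219) and Creld2 by 0.45 ± 0.36 (adjusted p = 0.536), each with overlap between the groups. The 4 libraries were spread widely: the mean of the 15 genes, as a log2 difference from the untreated mean, was 0.85, 0.42, 0.28 and 0.03, against 0.00, 0.16, -0.18 and 0.03 in untreated libraries. Replicate 4, the shallowest library, was thus within the untreated range.

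In ER degradation, 0 of 6 genes were called at 4 d (0 by DESeq2 and 0 at an unadjusted p below 0.05). The median log2 difference was 0.26. It was 0.06 without untreated replicate 3, 0.15 without 4 d replicate 3 and 0.40 without untreated replicate 1. Each of these fits tested 5 genes of the set, without Derl3, so their medians are not over the same genes. Herpud1 was above the untreated range by a small margin, with a log2 difference of 0.42 ± 0.27 (adjusted p = 0.435). Derl3 had the largest difference, 1.26 ± 0.66 (adjusted p = 0.328), with 14.6 CPM in 4 d replicate 1 and 1.25 to 3.90 CPM in the other 4 d libraries. Of the sensors, Xbp1 differed by 0.53 ± 0.22 (adjusted p = 0.208), Atf6 by 0.54 ± 0.33 and Eif2ak3 by 0.08 ± 0.34, and 0 of 3 were called (0 by DESeq2, 1 at an unadjusted p below 0.05).

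In the Atf4 arm, the mean of the 6 genes, as a log2 difference from the untreated mean, was 0.50, 0.59, 0.36 and 0.47 at 4 d, 0.35, 0.54 and 0.45 at 18 h, and 0.08, 0.39, -0.44 and -0.03 in untreated libraries. Untreated replicate 2 overlapped both treated groups, and the SD of this mean was 0.09 in each treated group and 0.34 in the untreated group. Opposite differences of single genes cancel in it. The summed CPM of the arm was 1875 ± 253.6 at 4 d, 1889 ± 406.8 at 18 h and 1010 ± 310.2 in untreated libraries (SD, n = 4, 3 and 4). That sum is mostly Atf4 (mean 1128, 1012 and 546.7 CPM at 4 d, 18 h and untreated) and Ppp1r15a (562, 723.8 and 309.5 CPM). It therefore says little about the other genes of the arm. Beside Atf4, Ppp1r15a was above the untreated range in every 4 d library, with a log2 difference of 0.86 ± 0.28 (adjusted p = 0.109, and 0.0497 by DESeq2). Asns differed by 0.69 ± 0.39 (adjusted p = 0.367) and Ddit3 by 0.26 ± 0.27 (adjusted p = 0.653).

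**Figure D5:**
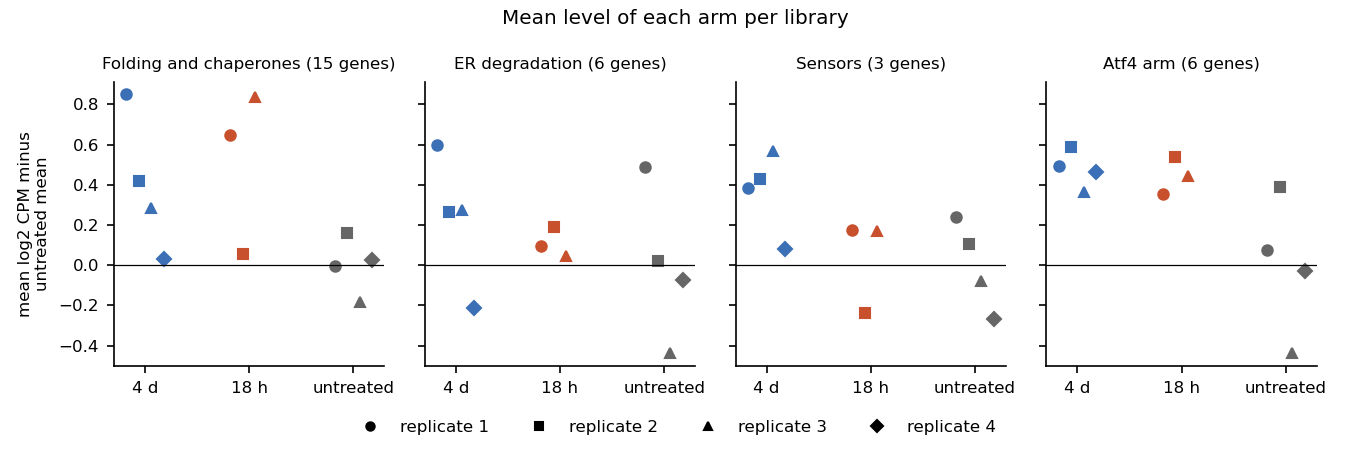
Mean log2 CPM of the tested genes of each set in every library, as the difference from the untreated mean. The folding genes reach 0.85 in 4 d replicate 1 and 0.84 in 18 h replicate 3 but lie near 0 in 4 d replicate 4 and 18 h replicate 2, whereas the Atf4 arm lies between 0.35 and 0.59 in all 7 treated libraries.

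Of the wider Atf4 targets, 1 of 34 was higher and 1 lower at 4 d against untreated fibroblasts, where 2.48% of all genes were higher and 0.824% lower. Slc3a2 was at 270.3, 257.3, 361.7 and 308.9 CPM at 4 d, 254.3, 424.1 and 295.6 CPM at 18 h, and 164.2, 135.0, 102.4 and 128.3 CPM untreated, a log2 difference of 1.18 ± 0.23 at 4 d (adjusted p = 0.0138). Ddit4 was at 12.7, 16.3, 12.3 and 13.7 CPM at 4 d, 125.3, 187.1 and 79.6 CPM at 18 h, and 43.5, 47.0, 37.8 and 53.0 CPM untreated, so it was below the untreated range at 4 d (-1.71 ± 0.27, adjusted p = 0.00722) after lying above it at 18 h. Of the 21 further ER degradation genes, 1 was called: Ube2j1, a ubiquitin-conjugating enzyme of the ER membrane, was higher (1.31 ± 0.33, adjusted p = 0.0451) at 4 d. Ddit4 passed at 4 d in all 21 alternative fits, Slc3a2 in 18 and Ube2j1 in 12. The other 5 lists had 0 genes called at 4 d (edgeR), with 0 to 2 in each at an unadjusted p below 0.05, and DESeq2 called 1, in the list of other folding genes.

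Between the 2 treated groups, 0 of the 30 members were called (edgeR), against 1.7% higher at 4 d and 3.81% lower over all genes (5.51% in either direction). At an unadjusted p below 0.05 there were 2, Herpud1 and Hyou1, against 21.6% of all genes, and DESeq2 called 1, Herpud1. Herpud1 was at 201.2 to 224.7 CPM at 4 d and 55.9 to 135.9 CPM at 18 h, without overlap, a log2 difference of 1.06 ± 0.30 (adjusted p = 0.0541). Herpud1 passed in 5 of 21 alternative fits, with a log2 difference from 0.78 to 1.31 over all 21. Among the 5 were the fits without 18 h replicate 3 (1.31, adjusted p = 0.0329) and without untreated replicate 3 (1.07, adjusted p = 0.0431). Without 18 h replicate 2, its lowest library, it did not pass, and 0 members were called. Hyou1 was at 2 to 14 counts a library at 4 d and 13 to 16 at 18 h, a log2 difference of -1.31 ± 0.58 (adjusted p = 0.205). The median was -0.22 for folding genes (5 of 15 above 0), 0.33 for ER degradation, 0.13 for the sensors and 0.16 for the Atf4 arm, against 0.00 over all genes. These medians moved with single libraries. That of the folding genes ran from -0.42 without 4 d replicate 1 to -0.07 without 4 d replicate 4, and that of ER degradation from 0.16 without 4 d replicate 3 to 0.47 without 18 h replicate 2. The fit without 4 d replicate 3 tested 5 genes of ER degradation, without Derl3. The median of the sensors ran from 0.05 without 4 d replicate 2 to 0.22 without 4 d replicate 4. That of the Atf4 arm was 0.01 without 4 d replicate 2 or 18 h replicate 1 and 0.06 without 18 h replicate 3.

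The wider lists did hold genes that differed between 4 d and 18 h. Of the 34 Atf4 targets, 4 were lower at 4 d and 1 higher, against the 3.81% and 1.7% of all genes: Ddit4 differed by -3.23 ± 0.29 (adjusted p = 1.3e-05), Gdf15 by -1.87 ± 0.41 (adjusted p = 0.0155), Wars, the tryptophanyl-tRNA synthetase, by -1.14 ± 0.29 (adjusted p = 0.0345), Cars by -0.99 (adjusted p = 0.0483) and Vldlr, a lipoprotein receptor, by 2.22 ± 0.51 (adjusted p = 0.0206). Eif2ak2 was lower at 4 d by -2.70 ± 0.36 on the log2 scale (adjusted p = 0.000464), at 29.1 to 31.1 CPM against 112.5 to 354.8 CPM at 18 h. Creb3l1 (-0.88 ± 0.23, adjusted p = 0.0404) and Traf2 (-1.76 ± 0.32, adjusted p = 0.00421) were lower too. Higher at 4 d were Rcn3 (0.95 ± 0.21, adjusted p = 0.0147) and Fkbp9 (1.07 ± 0.30, adjusted p = 0.0498) of the folding genes, Ssr1 (1.27 ± 0.28, adjusted p = 0.0167) and Ube2j1 (1.35 ± 0.37, adjusted p = 0.0467). Ddit4, Eif2ak2 and Traf2 passed in all 21 alternative fits, Gdf15 and Ssr1 in 19, Rcn3 and Vldlr in 18, and Wars, Ube2j1, Cars, Creb3l1 and Fkbp9 in 10, 9, 8, 8 and 7. Without 18 h replicate 2 these 5 missed the threshold (adjusted p = 0.118, 0.115, 0.075, 0.076 and 0.101). All p-values are from edgeR's quasi-likelihood fit.

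The authors' deposited table, read with its signs reversed so that treated stands over untreated and 4 d over 18 h, gave 6 members higher at 18 h and 0 lower at an adjusted p below 0.05, of which 5 are those called here and Pdia6 is the sixth (adjusted p = 0.0215 in the authors' deposited table). At 4 d against untreated the authors' deposited table called Atf4 (adjusted p = 0.00348), and between 4 d and 18 h it called Herpud1 (log2 difference 1.05, adjusted p = 0.0139).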

How the data were processed

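The members and the gene lists were chosen with earlier results of these data known. The submitters' processing notes name STAR 2.5.2b, HTSeq, cutadapt, bcl2fastq and DESeq2, and the build mm10. How molecular identifiers were treated, the strand setting and the annotation: not given in the sources used here. The deposited counts, whole numbers for each gene and library per the file headers, were the input of every test. The authors also deposited a normalized signal and rlog log2 values, both not used, and their own log2 fold changes and adjusted p-values, quoted only where named. The table held 12430 genes, with 0 columns left unmatched.

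Genes were filtered with filterByExpr (minimum count 10) in edgeR 4.0.16 (R 4.3.3) and scaled by TMM. All 11 libraries entered 1 robust quasi-likelihood fit with 3 contrasts, adjusted by Benjamini-Hochberg over 10067 genes. The SE is the log2 difference divided by the square root of F. CPM values use TMM library sizes, with a prior count of 2 on the log scale. Alternatives were DESeq2 1.42.0, other scalings and filters, 2-group fits, left-out libraries and replicate blocks. Of replicate pairs, the closest, 4 d replicates 1 and 2, differed with a chi-square of 5.28 per degree of freedom, and the others with 11.6 or more. All of these exceed counting noise, so no pair was counted as 1 library. They do not show whether libraries came from separate mice. Gene coordinates are GENCODE M21 on GRCm38, and promoters RefSeq GRCm38.p6. Named are all members called, the 3 with the highest mean CPM of each set, and up to 4 called genes a list and comparison; Hsp90b1, Asns, Canx, Dnajb9, Dnajc3, Pdia3, Pdia6, Manf, Hyou1, Edem1, Derl1, Derl3, Trib3 and Chac1 are named after their values were seen, as are Rcn2 and other called genes of the wider lists.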

Additional observations from a re-analysis of the deposited data

Results flagged for a closer look

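In groups of 4 libraries, 5 of 60 member groups had a library whose gap to the next was larger than 0.829 of the group's range; chance gives about 1 in 20. In untreated replicate 1, 3 members were far above the other untreated libraries: Calr at 1530 CPM (next 1050), P4hb at 1160 CPM (next 695) and Sel1l at 65.8 CPM (next 44.8). Canx in 4 d replicate 1 was at 41.5 CPM, above the other 4 d libraries (next 31.1). Ddit3 in untreated replicate 3 was at 77.8 CPM, below the other untreated libraries (next 136). Without untreated replicate 1, the log2 difference of Calr at 18 h stayed past the threshold.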

How the results depend on the processing

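No member changed direction where it was called. Of the 30 tested members, 10 changed sign in at least 1 alternative fit at 18 h. At 4 d against untreated 7 did, and for 4 d against 18 h also 7. Of members higher at 18 h (5), upper-quartile factors left 3, the replicate block by title numbers 2, by description numbers 0, and leaving out 1 library 2 to 6. At 4 d (1) DESeq2 gave 2, a fit of only the 2 groups 2, either replicate block 0, leaving out 1 library 0 to 2, and leaving out 18 h replicate 2 and untreated replicate 1 together, chosen after seeing the data, 5. For 4 d against 18 h (0 higher), DESeq2, upper-quartile factors and a minimum count of 20 gave 1 each, and leaving out 1 library 0 to 1. In all of these the cause was not tested.

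Few same-numbered libraries deviated together: 2 of 10 pairs by title numbers and 1 of 8 by description numbers had a correlation above 0.1. The 1 by description numbers, 18 h replicate 3 with untreated replicate 2, reached 0.432. With so few libraries in a group these correlations cannot exclude a pairing, and the labels name none. Over all genes, where 790 were higher and 472 lower at 18 h, the blocks gave 443 and 205 (title) and 306 and 112 (description), and leaving out 1 library 463 (without untreated replicate 3) to 963 higher and 171 (without 18 h replicate 1) to 567 lower. At 4 d (250 and 83), DESeq2 gave 481 and 209 and the 2-group fit 394 and 144. The blocks gave 46 and 14 (title) and 73 and 18 (description), and leaving out 1 library 86 to 440 and 27 to 177. Leaving out 18 h replicate 2 and untreated replicate 1 together, chosen after seeing the data, gave 594 and 274. For 4 d against 18 h (171 and 384), DESeq2 gave 343 higher, the 2-group fit 102 and 253, the title block 74 and 231, the description block 241 lower, leaving out both libraries under 1000000 counts 111 higher, and leaving out 1 library 45 (without 18 h replicate 1) to 346 (without 18 h replicate 3) higher and 196 to 461 lower. Upper-quartile factors shifted the median of all genes at 18 h by -0.10 (log2), TMM being the reference.

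Few libraries, 2 of them under 1000000 counts, limit the precision: Hyou1, Derl3, Trib3 and Chac1 rest on few counts, and the 3′ counts do not show splicing of Xbp1, translation of Atf4 or protein.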
